A study of Rattus norvegicus with 59 samples.

Results

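The genes described are 6 rat genes of selenium handling and selenoproteins, namely Sephs2, Selenop, Selenow, Gpx1, Gpx4 and Txnrd1, measured in 5 brain regions of rats bred for high or low alcohol preference. The members are all probe sets on the array whose single annotated gene symbol is one of these 6 genes. These are 6 of 4736 genes that have a probe set with a single symbol. There were 10 such probe sets among 8740 that are not controls, and 8 of the 10 were among the 5244 that stayed after the dimmest 40% were left out. Sephs2 was chosen by its difference in signal between the lines in these same data, and the other genes belong to the same pathway, so line differences of the members are given as a description with their errors and without a p-value, and counts of calls among them stand only beside the share of all probe sets. Regional differences were not used to choose the members and were tested.

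The rats were adult males of the inbred alcohol-preferring line (iP, named iP5C in the series design), and adult males of the inbred non-preferring line (iNP, named iNP1). There were 6 animals of each line, each giving cortex (called frontal cortex in the design), striatum, hippocampus, amygdala and accumbens. The exception was iP animal 6, for which the arrays include none of cortex. That makes 59 arrays with 6 per region and line, and 5 for iP cortex. All rats had water and chow, were handled daily and were killed in the morning, and the labels name no alcohol or other treatment. Each line is 1 inbred strain, so the animals of a line share a genome and the line comparison is of 1 strain with 1 other. The pieces of tissue hold many cell types, and fewer cells of a type and less RNA per cell cannot be told apart.

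Selenium enters proteins as selenocysteine, an amino acid placed at UGA codons that would otherwise end translation. Sephs2 encodes selenophosphate synthetase 2, which makes the activated selenium donor for selenocysteine and is itself a selenoprotein. Selenop encodes selenoprotein P, a secreted protein rich in selenocysteine that carries selenium to the brain and between its cells. Among the users of that selenium, Gpx1 is the cytosolic glutathione peroxidase, Gpx4 the peroxidase that reduces lipid hydroperoxides in membranes, Txnrd1 the cytosolic thioredoxin reductase, and Selenow a small protein with a thioredoxin-like fold that is abundant in brain and muscle. The brain is known for holding on to selenium when the diet lacks it.

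The region upstream of the start is shown for Sephs2, the gene that differed between the lines, and for Selenow and Gpx1, the genes whose signal differed most between regions. Each window runs from 250 bases before to 50 bases after the annotated start, taken from RefSeq with the rat build GRCr8, and is read 5′ to 3′ along the gene. All 6 genes were matched there, with 10 windows in all. Capitals mark matches to the motifs searched on both strands. TATAAA is the TATA box, and the E-box searched was CACGTG, which reads the same on both strands. The core of the antioxidant response element was spelled TGACNNNGC. The cores of the metal response element were spelled TGCACNC with A at the variable place or, with G there, TGCGCNC. In Selenow the capitals near the start are overlapping matches to TGCGCNC on the 2 strands.
Sephs2, chr1:191325906-191326205, minus strand: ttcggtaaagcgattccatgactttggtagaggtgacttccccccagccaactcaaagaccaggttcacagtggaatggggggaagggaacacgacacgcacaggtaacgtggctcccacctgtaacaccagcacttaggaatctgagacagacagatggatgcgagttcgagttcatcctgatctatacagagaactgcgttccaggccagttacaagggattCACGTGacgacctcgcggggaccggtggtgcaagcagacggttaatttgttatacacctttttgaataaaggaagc
Selenow, chr1:85732654-85732953, minus strand: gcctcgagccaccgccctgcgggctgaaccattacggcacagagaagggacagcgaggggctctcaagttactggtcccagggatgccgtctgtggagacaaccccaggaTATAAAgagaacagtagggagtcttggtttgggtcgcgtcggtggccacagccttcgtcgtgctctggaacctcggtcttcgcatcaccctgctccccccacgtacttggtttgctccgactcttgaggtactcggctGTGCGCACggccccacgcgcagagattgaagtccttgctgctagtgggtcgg
Gpx1, chr8:117905212-117905511, plus strand: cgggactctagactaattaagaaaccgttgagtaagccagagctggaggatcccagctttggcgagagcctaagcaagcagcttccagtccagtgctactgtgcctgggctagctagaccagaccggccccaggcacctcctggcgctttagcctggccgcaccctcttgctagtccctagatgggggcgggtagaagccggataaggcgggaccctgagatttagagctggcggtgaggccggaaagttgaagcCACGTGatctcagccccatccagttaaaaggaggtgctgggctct

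CACGTG stood in the windows of Sephs2 and Gpx1, that is 2 of the 10 windows, and in 6.42% of all 33469 windows in the table. TATAAA stood in Selenow and in 1 of the Selenop windows, against 14.2% of all windows. TGCGCNC stood only in Selenow among the 10 windows, against 14.1% of all, and TGCACNC in none, against 12.2%. TGACNNNGC stood in 1 window of Txnrd1, against 12.1% of all. A match says only that the letters are there.

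Median signal over all probe sets ran from 254 to 393 over the 59 arrays, which were scaled to the same mean. The array of cortex of iP animal 5 stood apart, with a log2 ratio of the Gapdh 3′ to the 5′ probe set of 6.14 against -0.15 to 0.44 on the other 58 arrays, a sign of shortened RNA. By median correlation over the tested probe sets, 5 arrays lay nearest another region than their own, namely cortex of iP animal 5 (nearest amygdala), amygdala of iP animal 1 (nearest cortex), amygdala of iNP animals 7 and 8 (nearest accumbens) and accumbens of iP animal 4 (nearest amygdala). All were kept, and results that change without them are named. The 7 tested markers of medium spiny neurons, the main cell type of striatum and accumbens, were higher there than in the other regions, with medians of 1.98 and 1.94 on the log2 scale (limma, each adjusted p under 0.05).

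Sephs2 had a lower signal in iP than in iNP rats in every region, and was the member that differed most between the lines. It is represented by 1 probe set (rc_AA799700_at), with signals from 168 to 805 and a median of 459 over all arrays, so no other probe set on the array can be set beside it. The lines are different inbred strains, and whether their sequences differ under the probes of this probe set was not tested, so a difference in signal between the lines cannot be told apart from a difference in binding. Averaged over regions, the iP animals had log2 signals from 8.35 to 8.54 with a median of 8.40, and the iNP animals from 8.99 to 9.28 with a median of 9.18. The 6 iP animals thus lay below all 6 iNP animals. Sephs2 was chosen by this contrast, and the share of all probe sets without overlap was not counted. Nothing is therefore read from its lack of overlap, here or in single regions. The difference, iP minus iNP, was -0.73 ± 0.066 (log2, SE, n = 6 each), so that the iP signal was 60.2% of the iNP signal.

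In cortex the iP animals 1 to 5 had Sephs2 signals of 236, 317, 415, 375 and 324, and the iNP animals had a lowest, median and highest signal of 360.2, 457 and 608. The lines overlapped there, with 3 of 5 iP animals below the lowest iNP animal. In striatum the lowest, median and highest signals were 236, 327 and 451 in iP and 382, 534 and 669 in iNP. The lines overlapped in striatum too, although all 6 iP animals lay below the iNP median. In hippocampus they were 352, 394 and 501 in iP and 578, 681 and 739 in iNP, with no overlap. In amygdala they were 266, 317 and 412 in iP and 459, 548 and 747 in iNP, again with no overlap. In accumbens they were 168, 371 and 503 in iP and 543, 614 and 805 in iNP, with no overlap but with the widest spread among iP animals, animal 4 being the lowest of all 59 arrays.

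**Figure D1:**
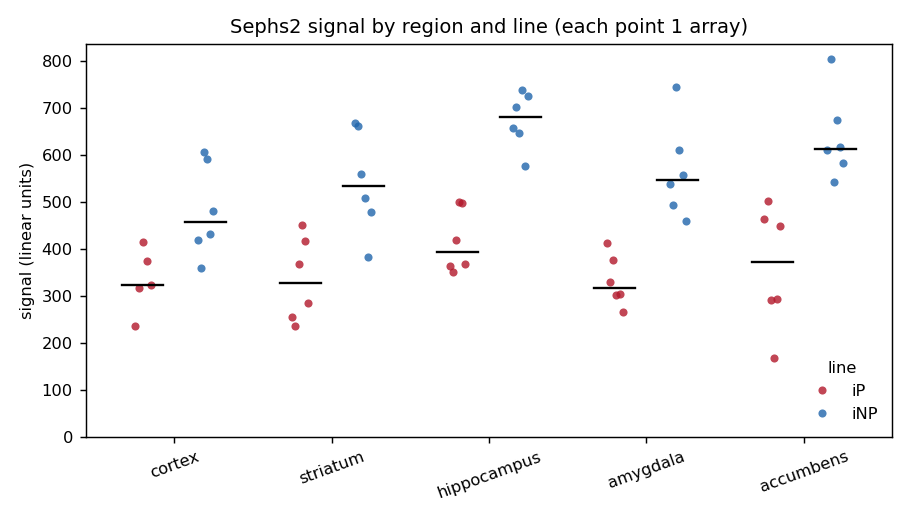
Sephs2 signal (linear units) in each region, iP at the left and iNP at the right of each pair. Each point is 1 array and each bar a median. The iP points lie below all iNP points in hippocampus, amygdala and accumbens and overlap them in cortex and striatum. Sephs2 was chosen by its line difference, so this is a description.

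The difference, iP minus iNP, was -0.90 ± 0.23 in accumbens, -0.77 ± 0.15 in amygdala, -0.71 ± 0.19 in striatum, -0.71 ± 0.12 in hippocampus and -0.53 ± 0.18 in cortex (log2, SE). In accumbens the difference was -0.70 without iP animal 4.

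No other member moved with the line in that way. In the limma fits across all 5244 probe sets, at an adjusted p of 0.05, 1 of the 8 tested members passed over all regions, where 2.65% of all probe sets passed. In single regions no member passed in cortex (0.229% of all probe sets), striatum (0.839%) or accumbens (0.572%), and 1 passed in hippocampus (0.667%) and amygdala (0.725%), each time Sephs2, although not in amygdala when any 1 of 7 animals (4, 5, 6, 7, 9, 10 or 11) was left out. Since the line contrast chose Sephs2, nothing is read from these counts. Of the 7 other tested probe sets, the differences over all regions lay between -0.09 and 0.10 and their 95% intervals within -0.23 to 0.40 (limma). The lines overlapped in all 35 of their comparisons within a region. The share of all probe sets with overlap was not counted, so nothing is read from that.

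**Figure D2:**
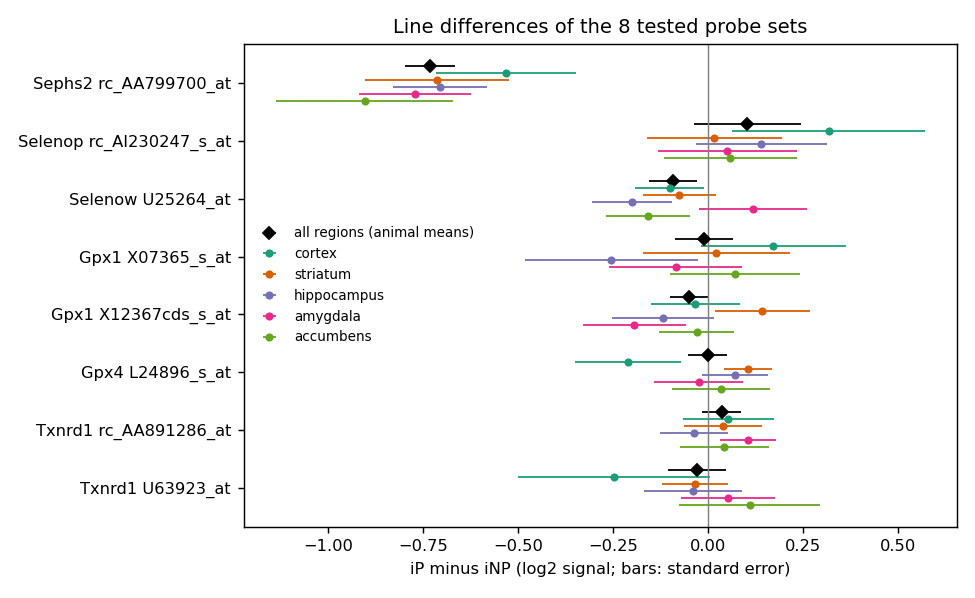
Difference between the lines, iP minus iNP, in log2 signal for the 8 tested probe sets, with diamonds for animal means over all regions, circles for single regions and bars for the standard error. Sephs2 lies between -0.90 and -0.53 in every region and the other probe sets scatter around 0.

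Selenop, the selenium carrier, was bright in all regions (probe set rc_AI230247_s_at, signals from 2752 to 10249, median 5589.8). Its iP minus iNP difference was 0.10 ± 0.14 over all regions and above 0 in each of the 5 regions, from 0.02 in striatum to 0.32 in cortex, with overlap everywhere. In cortex the iP animals 1 to 5 had Selenop signals of 6425, 4542, 4258, 5903 and 8129, and the iNP animals a lowest, median and highest of 2752, 4465 and 8309. The highest value of each line was of like size, and the highest iP value is that of the array with the high 3′ to 5′ ratio. A second Selenop probe set (M63574_at) was dim, with a median of 79.1 and 9 arrays at or under the floor of 16, and was not tested.

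Among the enzymes and Selenow, the differences between the lines were small beside the spread of the animals. The difference over all regions was -0.09 ± 0.063 for Selenow, -0.05 ± 0.050 and -0.01 ± 0.076 for the Gpx1 probe sets X12367cds_s_at and X07365_s_at, -0.00052 ± 0.051 for Gpx4, and 0.04 ± 0.051 and -0.03 ± 0.076 for the Txnrd1 probe sets rc_AA891286_at and U63923_at (log2, SE, n = 6 each). Selenow was lower in iP in 4 of 5 regions, the largest difference being -0.20 ± 0.11 in hippocampus. There, 5 of 6 iP animals lay below the lowest iNP animal, with signals from 5753 to 8965 in iP and from 7223 to 10375 in iNP. The share of all probe sets with such a count was not taken, so nothing is read from it. The largest difference of Gpx4, -0.21 ± 0.14 in cortex, shrank to -0.05 without iP animal 5, whose Gpx4 signal of 5491 lay below the 9081 to 9794 of the other iP cortex arrays. That of Txnrd1 U63923_at in cortex, -0.25 ± 0.25, became 0.03 without the same animal. No probe set on the array passed the line by region test (limma F test, 0% of all, 242 with an unadjusted p under 0.05).

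The clearest regional differences among the members were those of Selenow and Gpx1, which ran in opposite directions between striatum and accumbens. Selenow, the small thioredoxin-like selenoprotein (probe set U25264_at), was highest in striatum, with a lowest, median and highest signal of 7321, 10238 and 11579.6 over the 12 animals. Accumbens was lowest, with 5350.0, 6562 and 8537. Between them lay cortex (median 8817, n = 11), amygdala (8459) and hippocampus (7447). The 12 striatum arrays all exceeded the accumbens array of the same animal.

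Against the mean of the other 4 regions, with the animal as a block, Selenow was higher in striatum by 0.36 ± 0.061 (log2, SE, adjusted p = 1.38e-05, in 12 of 12 animals). It was lower in accumbens, with a difference of -0.33 ± 0.061 (adjusted p = 2.98e-05, in 11 of 12 animals). Both lines showed it when fitted alone, with differences of 0.37 in iP and 0.35 in iNP for striatum (adjusted p = 0.000465 and 0.0249), and -0.37 in iP and -0.29 in iNP for accumbens (adjusted p = 0.000208 and 0.0488). Striatum minus accumbens was 0.56 ± 0.077 (adjusted p = 1.96e-07). In the order of levels no pair of neighbours passed: striatum over cortex had an adjusted p of 0.0513 and hippocampus over accumbens one of 0.0901. Without the 5 arrays that lay nearest another region, a setting chosen after seeing the data, Selenow was also lower in hippocampus (-0.14, adjusted p = 0.0118) and higher in amygdala (0.16, adjusted p = 0.00989).

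Gpx1, the cytosolic glutathione peroxidase, had its highest mean in accumbens on both of its bright probe sets, although accumbens over amygdala, the next in order, did not pass on either (0.15 ± 0.093, adjusted p = 0.273, on the brighter and 0.30 ± 0.15, adjusted p = 0.167, on the dimmer). On the brighter one (X12367cds_s_at) accumbens had a lowest, median and highest signal of 4418, 5064 and 6199. Amygdala had 2785, 4764 and 5525, its lowest being the array of iP animal 1 that lay nearest cortex. Striatum had 2528, 3497 and 4496, while medians were 3725 in cortex and 3785 in hippocampus. The lowest accumbens array thus lay below the highest striatum array, but no animal had the higher signal in striatum.

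Accumbens exceeded the mean of the other 4 regions by 0.40 ± 0.074 on this probe set (adjusted p = 3.53e-05, in 12 of 12 animals). On the dimmer one (X07365_s_at) the lowest, median and highest signals were 1627, 2429.9 and 3254 in accumbens, and 723.6, 1305 and 2804 in hippocampus, the region with the lowest mean. Accumbens exceeded the other regions by 0.55 ± 0.12 there (adjusted p = 0.000333, in 10 of 12 animals). Each line alone passed on both probe sets, with differences of 0.41 in iP and 0.39 in iNP on the brighter (adjusted p = 0.0123 and 0.0089) and 0.60 in iP and 0.50 in iNP on the dimmer (adjusted p = 0.0404 and 0.0192).

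**Figure D3:**
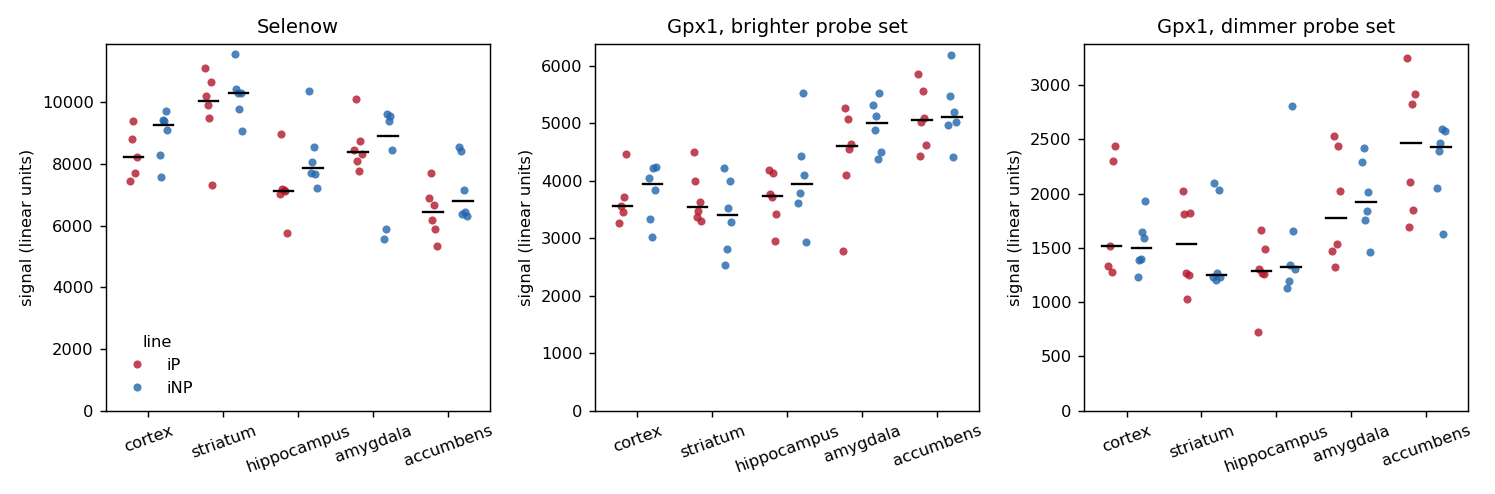
Signal (linear units) of Selenow and of the brighter and dimmer Gpx1 probe sets in each region, iP at the left and iNP at the right of each pair; points are arrays and bars medians. By median, Selenow is highest in striatum and lowest in accumbens, and both Gpx1 probe sets are highest in accumbens.

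The lowest region of Gpx1 was not separated from the next on either probe set (adjusted p = 0.735 for cortex over striatum on the brighter and 0.67 for striatum over hippocampus on the dimmer). The brighter one was lower in striatum than in the other regions, with a difference of -0.29 ± 0.074 (adjusted p = 0.0043, in 11 of 12 animals), but not in iP animals alone (-0.17, adjusted p = 0.458, against -0.41 and 0.00941 in iNP animals alone). The dimmer one was lower in hippocampus, with -0.40 ± 0.12 (adjusted p = 0.0102, in 10 of 12 animals), and did not pass in iNP animals alone (-0.25, adjusted p = 0.304), while its striatum difference of -0.25 ± 0.12 did not pass (adjusted p = 0.169). The brighter one was also higher in amygdala, by 0.21 ± 0.074 (adjusted p = 0.0305, in 11 of 12 animals), a call lost when any 1 of 7 animals (2, 4, 6, 7, 8, 9 or 11) was left out. Striatum minus accumbens was -0.55 ± 0.093 on the brighter and -0.65 ± 0.15 on the dimmer probe set (adjusted p = 1.25e-05 and 0.00139), with the striatum array lower in 12 and 10 of 12 animals. Another Gpx1 probe set (M21210_i_at) had signals from 17.6 to 34.6 and was not tested.

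Sephs2 was higher in hippocampus than in the other 4 regions, by 0.31 ± 0.11 (adjusted p = 0.0249, in 12 of 12 animals). The call was lost without animal 5 or 12 (adjusted p = 0.0531 and 0.063). It was also lost without the animal as a block, which left a difference of 0.30 with an adjusted p of 0.174. That fit leaves the line difference of Sephs2 in the residual spread, so nothing is read from its p. Neither line alone passed, with 0.32 in iP and 0.30 in iNP (adjusted p = 0.315 and 0.0722). By mean level the order of Sephs2 ran from hippocampus over accumbens, amygdala and striatum to cortex. No neighbours in it differed beyond their spread (limma, adjusted p from 0.364 to 0.856). Of all pairs only its ends passed, with cortex minus hippocampus at -0.44 ± 0.14 (adjusted p = 0.0171).

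The other members varied less between regions. Selenop was lowest in cortex, with a difference of -0.24 ± 0.089 that did not pass (adjusted p = 0.0516) but did without cortex of iP animal 5 and amygdala of iP animal 1 (-0.33, adjusted p = 0.00317). Without those arrays the brighter Gpx1 probe set also passed in cortex, with -0.25 (adjusted p = 0.00447). The cortex difference of Selenop passed too with quantile scaling (adjusted p = 0.0363) and with the lowest 60% of probe sets left out (adjusted p = 0.0447). It did not pass without the animal as a block (adjusted p = 0.234), nor in either line alone (adjusted p = 0.635 in iP and 0.0957 in iNP). By pairs of regions (limma), Selenop was lower in cortex than in accumbens (-0.34 ± 0.11, adjusted p = 0.021) and amygdala (-0.32 ± 0.11, adjusted p = 0.0281). None of its other pairs passed. Gpx4, the brightest member with a median of 9076, passed in no region, its largest difference being 0.13 ± 0.063 in hippocampus (adjusted p = 0.16).

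Txnrd1, the thioredoxin reductase, gave a different pattern on each of its probe sets. The brighter one (rc_AA891286_at, median 2972) was lower in hippocampus than elsewhere, with -0.15 ± 0.052 (adjusted p = 0.0346, in 10 of 12 animals), lost without animal 1, 4, 7 or 9 (adjusted p from 0.052 to 0.105). The dimmer one (U63923_at, median 1051) was lower in amygdala, with -0.29 ± 0.092 (adjusted p = 0.014, in 10 of 12 animals), where its lowest, median and highest signals were 715, 838 and 1117, against 971, 1122 and 1320.2 in striatum. Neither call passed in either line alone (adjusted p from 0.0662 to 0.344). Striatum minus amygdala was 0.41 ± 0.12 on the dimmer one (limma, adjusted p = 0.00556), the only pair of regions to pass on either. The Gapdh 3′ to 5′ log2 ratio had a lowest, median and highest value of -0.15, 0.20 and 0.44 in amygdala, while the medians of the other regions lay between 0.0082 and 0.092. The array with the ratio of 6.14 had the lowest U63923_at signal of all, 409, and the part of RNA quality in the amygdala difference was not tested. The brighter one had an amygdala difference of only -0.008 ± 0.052 (adjusted p = 0.932).

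Of the 8 tested members, none passed in cortex, 2 in striatum (1 higher, 1 lower), 3 in hippocampus (1 higher, 2 lower), 2 in amygdala (1 higher, 1 lower) and 3 in accumbens (2 higher, 1 lower). The shares of all probe sets that passed were 17% for cortex, 13.9% for striatum, 23.3% for hippocampus, 26.1% for amygdala and 20.9% for accumbens. The median absolute difference ranged over the regions from 0.08 (cortex) to 0.17 (striatum) for the members and from 0.10 (striatum) to 0.13 (amygdala) for all probe sets. Between striatum and accumbens 3 of 8 members passed, namely Selenow and both probe sets of Gpx1, with 14.1% of all. The 2 called higher in accumbens were likewise both of Gpx1, so probe sets of 1 gene are counted apart here. Regional differences were thus common on the array, and the counts are not set apart from that background by any test.

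The 2 probe sets of a gene did not always move together from animal to animal. Across the 59 arrays the Gpx1 pair had a Pearson correlation of 0.61, and 0.37 after each group's mean was taken away. The Txnrd1 pair had -0.18 and -0.27. Without cortex of iP animal 5 and amygdala of iP animal 1 the within-group value of the Txnrd1 pair was -0.12. Between genes the highest within-group correlation of a member pair was that of Selenop with the brighter Txnrd1 probe set, at 0.59. These values share arrays and their scaling and are descriptions.

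**Figure D4:**
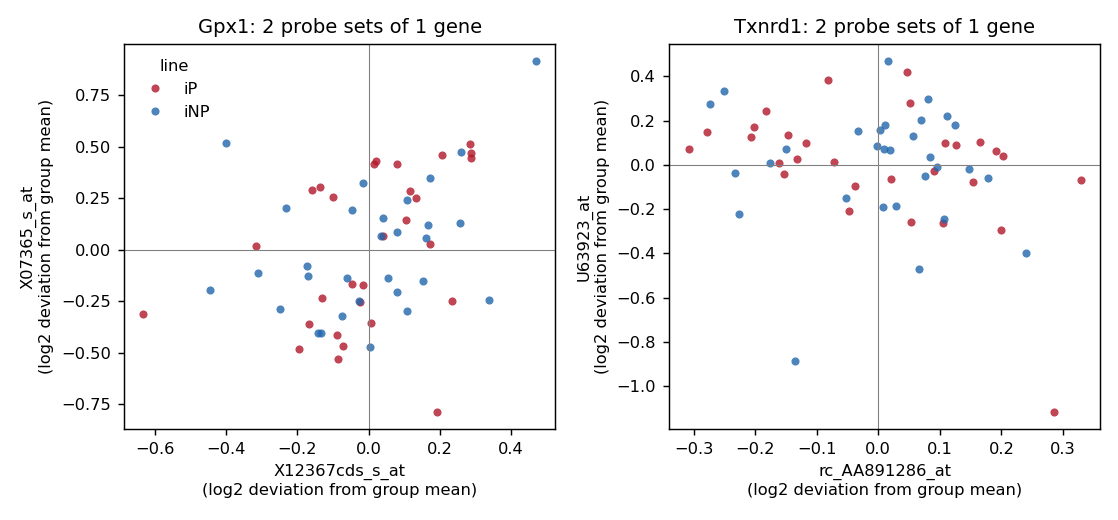
Deviation of each array from the mean of its region and line (log2) on the brighter (x axis) and dimmer (y axis) probe set of Gpx1 and of Txnrd1, with 59 arrays, iP in red and iNP in blue. The Gpx1 points rise together (correlation 0.37), while the Txnrd1 points do not (-0.27).

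Markers of other tissue moved with region beside Gpx1 and Selenow. The 3 tested markers of choroid plexus (Igf2, Igfbp2 and Ttr; the first 2 are also made by the meninges) had median differences of 1.01 in accumbens, where 2 were higher, and -1.34 in striatum, where all 3 were lower. The 4 markers on the array summed to signals of 5830.0 to 10355 in accumbens, against 1323 to 3914 in striatum, and do not overlap. The 3 blood markers (Alas2, Hbb and Hbb-b1) were all higher in accumbens (median 0.62) and all lower in striatum (median -0.32), with sums of 33571 to 68852 in accumbens and 24359 to 55756 in striatum. In hippocampus, where the dimmer Gpx1 probe set was lower, the 3 blood markers were all lower (median -0.39, sums of 20308 to 40627), and of the choroid plexus markers Igf2 and Igfbp2 were lower and Ttr higher (-0.82, -1.17 and 4.40). In amygdala, where the brighter Gpx1 probe set was higher, 2 of 3 blood markers were higher (Alas2 and Hbb-b1, list median 0.23, sums of 24947 to 62087), and Igf2 and Igfbp2 were higher and Ttr lower (1.13, 0.98 and -0.94). Red cells contain Gpx1. No listed marker of these had a median signal at the floor, and their part in the Gpx1 and Selenow results was not tested.

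Of the 5 neuron markers 3 were lower in accumbens (Nefl, Snap25 and Uchl1, list median -0.15), with sums of 37037 to 48210.2 in accumbens, against 39679 to 53055 in striatum, where 1 was lower (Nefl). In amygdala, where the dimmer Txnrd1 probe set was lower, 4 of the 5 were lower (Nefl, Nefm, Snap25 and Syt1, list median -0.37) and Uchl1 was higher, with sums of 43084 to 53135. The astrocyte list had 2 of 7 lower in accumbens (Aldoc and S100b) and none called in striatum. Its median in accumbens was 0.04, beside 0.02 for all probe sets. The endothelial list had none of 3 called in any region. The microglia list had 1 of 4 higher in accumbens (C1qb), 2 higher in amygdala and the same 2 (Aif1 and C1qb) lower in hippocampus. The oligodendrocyte list (Cnp, Mag, Mbp, Mobp and Mog) had 5 of 5 higher in hippocampus (median 0.53) and 5 of 5 lower in amygdala (median -0.91). It also had 4 of 5 higher in striatum, where Selenow was highest (all but Mbp, median 0.39), and 3 of 5 higher in accumbens, where Selenow was lowest (Cnp, Mobp and Mog, median 0.22), with sums of 66232 to 101829 in striatum and 66000 to 94440 in accumbens. The part of these cells in the regional differences of Selenow and Txnrd1 was not tested. Between the lines, the blood list had a median of -0.38 over all regions with 1 of 3 called lower in iP (Hbb-b1, -0.38, adjusted p = 0.0406), and their summed signal ran from 20308 to 56008 in iP and 25361 to 68852 in iNP. P2ry12 of the microglia list (-0.77, adjusted p = 0.000899, 1 of 4 called) and Pecam1 of the endothelial list (-0.47, adjusted p = 0.00155, 1 of 3 called) were also lower in iP. The list medians were -0.008 for microglia and -0.16 for endothelial markers, beside -0.01 for all probe sets. The other 5 marker lists had no gene called between the lines over all regions. The part of these cells in the Sephs2 difference was not tested.

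The genes whose signal was most like that of each member over the 59 arrays add a description of these patterns. For Gpx1 (brighter probe set) they were Calb2, the calcium-binding protein calretinin, Csdc2 and Loxl1, a lysyl oxidase of elastic fibres, with correlations of 0.75, 0.74 and 0.74, and 0.46 to 0.54 within groups. All of them were higher in accumbens, by 0.80, 1.22 and 0.65 (adjusted p = 3.29e-08, 3.71e-17 and 4.63e-06), and lower in striatum. For Selenow they were Cntnap1, a protein of the axon beside the node of Ranvier, Ckb, the brain creatine kinase, and Thy1, a neuronal surface protein, at 0.73, 0.68 and 0.66. Within groups they still stood at 0.56, 0.72 and 0.74.

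For Selenop the nearest genes were Slc1a3, the glutamate transporter of astrocytes, Rpl39 and Dhx9 (0.79, 0.76 and 0.75), with within-group values of 0.82, 0.78 and 0.78. For Gpx4 they were Cdk5, Clip2 and Kif3c (0.72, 0.66 and 0.65), which fell to 0.64, 0.55 and 0.54 without cortex of iP animal 5 and amygdala of iP animal 1. For the brighter Txnrd1 probe set they were Prps1, Ddx46 and Pnrc1 (0.77, 0.74 and 0.74). For Sephs2 they were Ddx42, Vps52 and Slc5a3 (0.73, 0.69 and 0.69), and on the opposite side Akap11, Arpc4 and Hs6st1 (-0.76, -0.71 and -0.69). Within groups all 6 lay between -0.25 and 0.31, far from their values over all arrays. Between the lines the first 3 genes had differences of -2.18, -0.51 and -1.23 and the last 3 of 2.55, 1.09 and 4.23, iP minus iNP.

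The other genes of the pathway are read against the shares of all probe sets given above for each comparison. Where a number of all probe sets called in the same direction is given, they are read against that. Nothing is read from the counts of lists with 3 tested genes. Of 19 other genes listed as selenoproteins or members of their families, 7 were on the array and 3 were bright enough to test. These were Dio3, the deiodinase that inactivates thyroid hormone, Gpx3, the plasma glutathione peroxidase, and Txnrd2, the mitochondrial thioredoxin reductase. None of the 3 passed between the lines, over all regions or in any region, and none passed in any region against the others. Their line differences over all regions were -0.03 for Dio3, -0.05 for Gpx3 and -0.08 for Txnrd2, with a list median of -0.05 beside -0.01 for all probe sets.

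Of 15 genes of selenium delivery and selenocysteine synthesis and insertion, 4 were on the array and 3 were tested. Scly, the lyase that frees selenium from selenocysteine, differed between the lines by -0.01 over all regions, Ncl by -0.09 and Rpl30 by -0.13, and none passed there or in a region. Scly was higher in amygdala than elsewhere (0.35, adjusted p = 0.0318) and Ncl, nucleolin, which can bind selenoprotein messages, lower there (-0.27, adjusted p = 0.0301). Rpl30, a ribosomal protein that can bind the element directing selenocysteine insertion, was lower in hippocampus (-0.68, adjusted p = 0.0429). Its probe set was rather dim, with a median signal of 264.

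Of 22 thioredoxin, glutathione and peroxide enzyme genes without selenium, 16 were on the array and 15 were tested. Cat, the peroxide-splitting enzyme catalase, was the only one called between the lines over all regions, higher in iP by 0.38 ± 0.090 (log2, SE, adjusted p = 0.0367), and the list median was 0.01. None was called between the lines in a single region. Between regions, 5 of 15 were higher in amygdala, where 697 of all 5244 probe sets were called higher. They were Nqo1 (0.34), Prdx3 (0.24), Txnip (0.23), Prdx1 (0.18) and Sod1 (0.17). In accumbens, where 645 of all were called higher, 2 were (Txnip, 0.46, and Prdx2, 0.27). Sod3, the extracellular superoxide dismutase, was higher in hippocampus (0.85, adjusted p = 6.57e-07), and Sod1 was lower there (-0.16). Of all probe sets, 566 were called higher and 654 lower in hippocampus. In cortex, where 482 of all were called lower, 3 were (Txnip, -0.47, Prdx1, -0.26, and Prdx2, -0.20). In striatum, where 401 of all were called lower, 1 was (Prdx2, -0.18). Prdx2, a peroxidase of the cytosol that is abundant in red cells, thus differed in the same directions as the brighter Gpx1 probe set in accumbens and striatum. It was not called in amygdala, where that Gpx1 probe set was, and was called in cortex, where that Gpx1 probe set was not. The part of blood in these differences was not tested.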

How the data were processed

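Total RNA of each rat and region was labelled with biotin and hybridised to its own 1-colour rat expression array, per the labels' protocols. The authors deposited 1 intensity value per probe set on a linear scale; no label or header names the program behind these intensity values. After trimming 2% at each end, the mean was 1000 on every array, so no further scaling was applied. Titles and the genotype label gave region and line, whereas the source name, which says iNP on every array, was set aside.

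Of 8799 probe sets, 59 controls were left out. Signals under 16 were set to 16 and log2 taken, and the 40% of probe sets with the lowest mean were left out, leaving 5244. Of the 8740 non-control probe sets 7006 have 1 gene symbol, 308 several and 1426 none; 1 with several symbols holds a member and was left out. All 10 member probe sets matched the rat gene table by gene ID. The brightest probe set stood for a listed gene. A probe set whose name ends in _s_at can bind more than a single related transcript.

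Tests were two-sided, with limma 3.58.1 in R 4.3.3, a variance trend with intensity and Benjamini-Hochberg adjustment over all tested probe sets. The line difference over all regions used animal means after each region's level was removed. Each region was compared with the other 4 averaged, blocking on the animal, and the line by region test was an F test with the same block. The pairing rests on the animal numbers in the titles: deviations of the same animal in different regions had a mean correlation of 0.0574, against -0.00854 for different animals of a line. Precision is limited by the number of arrays. The fits were run on simulated signals with known changes and independent noise. These held no animal effects, so the handling of the animals was not checked by them.

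The members, the gene and marker lists and the rule for named genes (all member probe sets, up to 4 called genes per list and comparison, the 3 genes most correlated with the brightest probe set of each member, and for Sephs2 the 3 most opposed) were chosen with earlier results of these data known. Beyond that rule, the fifth called gene of a list was also named in places, which was decided after its values were seen. Promoter windows and motifs were read with Python 3.11.15. The left-out arrays, the filter, quantile scaling, the joint fit, the animals and each line alone were tried as alternatives.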

Additional observations from a re-analysis of the deposited data

Results flagged for a closer look

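An array lay far from the other arrays of its region and line in 5 of 80 checks of the 8 tested members, where chance gives about 1 in 20. The Gpx4 signal of cortex of iP animal 5 was 5491, against 9081 to 9794 in the other iP cortex arrays. The Txnrd1 signal (U63923_at) of the same array was 409, against 999 to 1186 in the others. This is the array with the Gapdh 3′ to 5′ ratio of 6.14 on the log2 scale. On the same array the other Txnrd1 probe set (rc_AA891286_at, 3893) and the brighter Gpx1 probe set (4473) were the highest of the iP cortex arrays.

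The Gpx1 signal (X07365_s_at) of hippocampus of iP animal 1 was 723.6, against 1264 to 1663 in the other iP hippocampus arrays. The Txnrd1 signal (rc_AA891286_at) of hippocampus of iNP animal 9 was 2354, against 2818 to 3015 in the others. The Txnrd1 signal (U63923_at) of accumbens of iNP animal 12 was 539, against 970.3 to 1377 in the others.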

How the results depend on the processing

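No call of a member changed direction under any alternative tried. The line difference of Sephs2 stayed negative throughout; leaving out 1 animal at a time it lay between -0.77 and -0.71 over all regions, -0.62 and -0.41 in cortex, and -1.02 and -0.70 in accumbens. With the lowest 60% of probe sets left out, Sephs2 was not among those tested, so 0 members passed between the lines over all regions, in hippocampus and in amygdala; 19 probe sets then passed between the lines in accumbens, and 1 member passed in cortex against the other regions. In 1 fit of all arrays with the animal as a random block (correlation 0.0495), 56 probe sets passed between the lines in cortex, 59 in amygdala and 51 in accumbens, and 1 member each in striatum and accumbens. Without cortex of iP animal 5 and amygdala of iP animal 1, 24 probe sets passed between the lines in cortex and 2 members in cortex against the other regions. Without all 5 arrays that lay nearest another region, a setting chosen after seeing the data, these counts were 24 and 3. Quantile scaling gave 1 member in cortex. Leaving out 1 animal gave 9 to 24 probe sets between the lines in cortex, 24 to 52 in amygdala and 18 to 39 in accumbens, 0 to 1 members between the lines in amygdala, 0 to 2 members in cortex and 1 to 2 in amygdala against the other regions.

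With iP animals alone, 497 probe sets passed in accumbens, 672 in amygdala, 248 in striatum, 630 in hippocampus and 261 in cortex against the other regions, with 1 member in striatum, 1 in hippocampus and 0 in amygdala. With iNP animals alone, 424 passed in striatum and 809 in amygdala, with 1 member in cortex, 0 in hippocampus and 1 in amygdala; fewer animals entered these fits. Without the replicate block, the Sephs2 difference in hippocampus was 0.30 with an adjusted p of 0.174, and no other call of a member changed. That fit leaves the line difference of Sephs2 in the residual spread. Calls of members that appeared under an alternative and are not named above were Sephs2 in cortex without the 5 arrays (-0.26, adjusted p = 0.0494), Selenop in accumbens with quantile scaling (0.23, adjusted p = 0.0369), and Txnrd1 U63923_at in striatum without the 2 arrays (0.20, adjusted p = 0.0444), along with some with 1 animal or 1 line left out. The Selenow calls in striatum and accumbens and the Gpx1 calls in accumbens held under all alternatives run.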
